A study of Mus musculus with 45 samples.

Results

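Inflammatory monocytes (iMo) of the mouse lung were examined 20h after intraperitoneal (ip) injection of lipopolysaccharide (LPS) and compared with iMo at 0h. The samples were chosen by their labels, 2 libraries at 20h and 2 at 0h of 45 libraries in the series, and the comparison covered all genes. The study sorted these monocytes, alveolar macrophages (AM) and interstitial macrophages (IM) from lungs of C57BL/6J mice, without LPS (0h) and after ip or intranasal LPS, and sequenced their polyA RNA from low input. Every group used here is of strain C57BL/6J, and no other allele or agent is labelled: iMo, IM and AM at 0h carry no treatment label, and the ip groups were taken 2, 6 or 20h after LPS. The sources used here name no sorting gates, LPS dose, or age and sex of the mice. The labels do not say whether the replicates came from separate animals, so p-values measure only a spread between libraries, which may be technical. That spread is estimated over all groups of the model, AM and IM included, and not from the iMo libraries alone.

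LPS is a component of the outer membrane of Gram-negative bacteria that is sensed through TLR4 and sets off NF-kB and interferon programmes in myeloid cells. Classical monocytes are made in the bone marrow, leave it through the chemokine receptor CCR2 and enter inflamed tissue, where they can acquire macrophage features such as complement C1q, efferocytosis receptors and the scavenger receptor MARCO. Circulating monocytes rarely divide, and genes of DNA replication and mitosis are read as markers of cycling cells or of recent descendants of cycling precursors.

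Values are deposited TPM, transcript levels corrected for gene length and library size. Differences were tested on log2(TPM + 1) in 8937 genes, in 1 limma model over 27 libraries of 0h and ip LPS, and genes with a Benjamini-Hochberg adjusted p under 0.05 were called. "Rose" and "fell" refer to this test. Because the median of all genes tested was itself at -0.311 in 20h against 0h, log2 fold changes are printed after subtraction of that median, with the standard error (SE) of the model. The tests, adjusted p and calls refer to the change before this subtraction, so calls include that shift. TPM keep no read depth, so the precision of a value is known only from the replicates. Pearson r of log2(TPM + 1) across genes was 0.977 between the 0h libraries and 0.981 between the 20h libraries, and 0.922 to 0.938 between the groups. Rn45s, a ribosomal RNA precursor, held 6.27 and 5.32% of the column sums at 0h and 11.7 and 17.2% at 20h. Its part in the results was not tested by itself. Counts with columns rescaled without Rn45s and another abundant transcript, Lars2, are given below. The library titles end in a letter and a code (A171227 and B171227 at 0h, A161219 and B161219 in all iMo groups after LPS), so that code and LPS cannot be told apart within iMo. Some AM and IM groups hold libraries of different codes. Without the code in the model, the SE of iMo results therefore also holds differences between codes in those groups. Library B of 0h differed from library A in interferon-inducible GTPases, of which 14 of 14 were higher in B. It also did so in MHC class II genes, of which 10 of 10 were higher in B. The share of all genes higher in B was not counted. Results on both lists are given with and without library B of 0h.

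Of the 8937 genes, 660 (7.39%) rose and 1321 (14.8%) fell at 20h. Leaving out any 1 of the 4 libraries left 760 to 1092 genes called, the fewest without library B of 20h. With the title code in the model, 265 genes were called. Of these, 138 higher and 121 lower calls were shared with the model without the code, and none was in the opposite direction. The code of the iMo libraries of 0h is tied to the other codes through the AM libraries of 0h alone. Only 1 of those AM libraries carries another code, so each 20h against 0h result with the title code rests on it. Rn45s held 30.4% of the column sum of that library, against 6.48 to 23.8% in the other AM libraries of 0h. The share of calls that were higher was 33.3% without the title code, and it depended on scaling: 51.4% after quantile normalization, 46.5% with equalised library medians, 54% with the title code and 81.1% with columns rescaled without the abundant Rn45s and Lars2. With rescaled columns 2269 of 8919 genes rose and 528 fell. Of the 8937 genes, 1243 rose and 1173 fell after quantile normalization, and 143 rose and 122 fell with the title code. List counts under these settings are to be read beside these numbers. The summed level of 15 classical monocyte markers was 57070 and 57410 TPM in the iMo libraries of 0h and 11730 and 11230 TPM at 20h, with none at 0. In IM the same sum was 23730 and 28560 TPM at 0h and 13630 and 10500 TPM at 20h. In AM it was 15070 to 44330 TPM at 0h and 19390 and 9755 TPM at 20h. The sum is highest in iMo at 0h, but at 20h it does not set iMo apart and cannot check the label. Markers of other cells stayed low in sum at 20h: 18.8 and 37.5 TPM for 10 endothelial, 5.72 and 10.9 for 8 fibroblast and smooth muscle, 29.7 and 12.95 for 12 lung epithelial and 4.34 and 11.4 TPM for 7 platelet markers. The epithelial sum at 0h was 132.5 and 174.3 TPM and came mostly from Hopx (109.7 and 146.2 TPM), which other cells also express. Dendritic cell markers summed to 77.5 and 34.1 TPM at 0h and to 6.84 and 7.58 TPM at 20h, lymphocyte markers to 37.7 and 54.5 and then 77.0 and 51.0 TPM, and erythroid markers to 73.4 and 31.2 and then 22.5 and 0 TPM. None of 8 eosinophil and basophil markers was high enough to be tested. Neutrophil markers were higher and are described with their group. In sorted bulk samples, fewer cells of a type and less RNA per cell cannot be told apart.

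**Figure D1:**
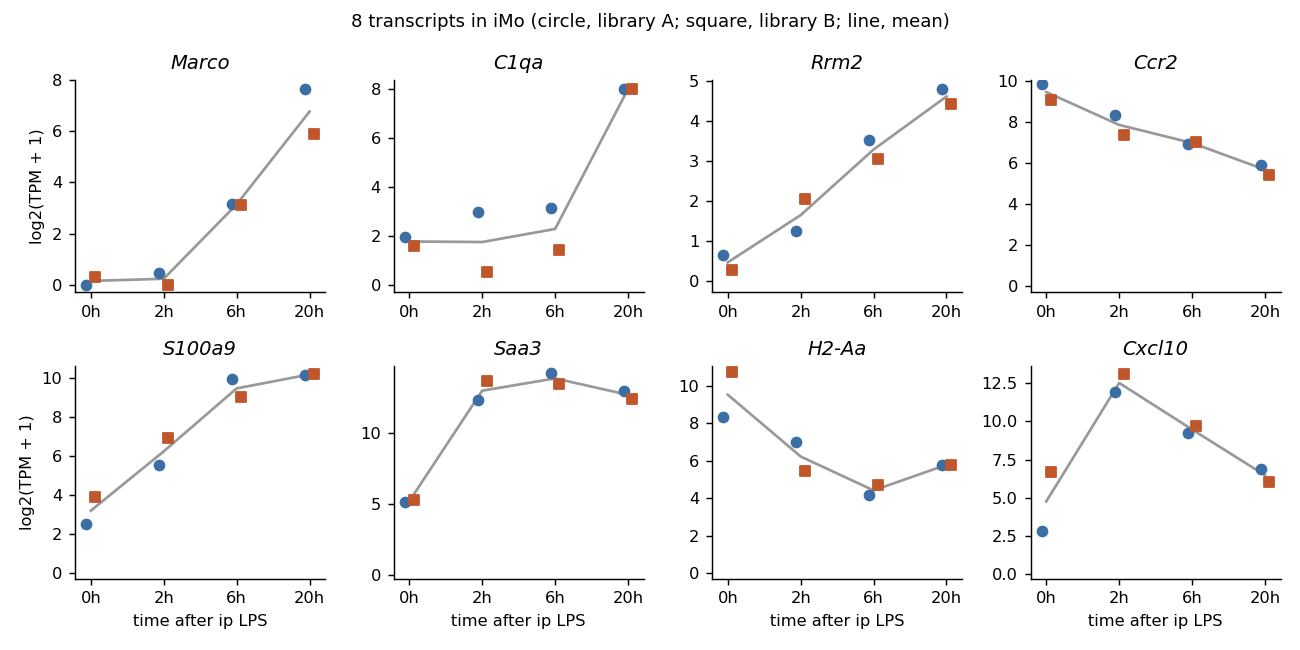
Level of 8 transcripts in each iMo library, as log2(TPM + 1), at 0, 2, 6 and 20h after ip LPS (times evenly spaced; circles library A, squares library B, line the mean of 2). Marco and C1qa are high in both 20h libraries alone, Rrm2 is higher at each later time, Ccr2 is lower at each later time, and H2-Aa and Cxcl10 differ between the 0h libraries.

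Some macrophage transcripts rose in iMo at 20h. The sum of 22 alveolar macrophage markers was 1050 and 1171 TPM at 0h and 1072 and 841 TPM at 20h. For 20 interstitial macrophage markers it was 1510 and 1624 TPM, then 2195 and 2042 TPM. Marco, a scavenger receptor of alveolar and other macrophages, was at 0 and 0.232 TPM in the 0h libraries A and B and at 195.6 and 58.5 TPM in the 20h libraries A and B. Its log2 fold change was 6.92 (SE 0.78, adjusted p = 3.98e-06, limma). The 20h libraries differ by several times in Marco, yet both lie far above 0h. C1qa, which encodes a chain of the complement protein C1q, was at 2.85 and 2.05 TPM at 0h and at 248.7 and 252.3 TPM at 20h (log2 fold change 6.51, SE 1.16, adjusted p = 0.000593). The genes of the other C1q chains rose too. C1qb went from 16.8 and 22.6 to 1014 and 898.3 TPM, and C1qc from 5.26 and 6.31 to 388.4 and 314.2 TPM. The C1q genes lie beside each other in the genome, and each had similar levels in both 20h libraries. With the title code in the model the 3 genes kept their direction and lost the call (adjusted p = 0.125, 0.141 and 0.152 for C1qa, C1qb and C1qc), while Marco kept it (0.000876). Of 12 tested complement genes 5 rose, with Cfb and the C5a receptor gene C5ar1 (20.1 and 6.09 to 74.8 and 88.8 TPM) beside C1q, and C3 was among those that fell. With the title code 1 rose and 1 fell.

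Of 19 tested interstitial macrophage markers (20 listed), 7 rose and 1 fell, with a median log2 fold change of 0.67. Adding the title code left 1 called. Besides C1q, the chemokine Ccl12 (0 in both 0h libraries, 55.7 and 52.5 TPM at 20h), the folate receptor Folr2, the scavenger receptor Stab1 and the transcription factor Maf rose. Folr2 reached 6.35 and 16.6 TPM, and its call was lost without library A of 0h or library B of 20h. Maf went from 22.4 and 12.98 to 66.6 and 56.8 TPM, and its call was lost when any 1 of the 4 libraries was left out. Cx3cr1, the fractalkine receptor, fell from 75.5 and 54.5 to 12.2 and 14.9 TPM. Lyve1, Cd163 and Timd4, other markers of resident macrophages, were at 2.20 TPM at most in the 20h libraries. Of 22 alveolar macrophage markers, 5 rose (Marco, Siglec1, Lpl, Cd9 and Krt79) and 1 fell (Il18). With rescaled columns 12 rose, and with the title code 1. Siglecf, which defines alveolar macrophages, was at 1.82 and 1.43 TPM at 20h, and Fabp1 at 1.8 and 4.24 TPM. Leaving out single libraries left 1 to 4 of these markers higher, the fewest without library B of 20h.

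Receptors for apoptotic cells and for scavenging moved unevenly, with 3 of 14 tested members higher and 1 lower. Mertk, a receptor tyrosine kinase that binds apoptotic cells, rose from 1.24 and 1.09 to 10.5 and 16.4 TPM (log2 fold change 3.02, SE 0.39, adjusted p = 4.07e-05). Trem2, a lipid-sensing receptor of macrophages, fell from 56.0 and 54.6 to 8.78 and 5.65 TPM, and the call was lost without library B of 20h. Nr1h3, which encodes the oxysterol-activated nuclear receptor LXR alpha, rose from 2.40 and 5.67 to 173.8 and 249.3 TPM (log2 fold change 5.77, SE 0.49, adjusted p = 1.79e-07). Of 11 tested LXR targets, Nr1h3 itself was the 1 that rose, and Apoc1, Apoc2 and Mylip fell, while 3 rose and 2 fell with rescaled columns and 1 fell with the title code or without any 1 library. Apoc1, an apolipoprotein gene, went from 39.1 and 31.4 to 0 and 1.30 TPM. Abca1 and Abcg1, which export cholesterol, did not pass the test (0.757 and 1.54 TPM and 5.02 and 9.37 TPM at 20h). Among lineage transcription factors, Spic, the regulator of iron-recycling macrophages, rose from 2.93 and 3.86 to 61.9 and 46.6 TPM, as did Bhlhe40, Maf and Nr4a1, and Batf3, Cebpd, Irf8, Runx1 and Zeb2 fell, 4 and 5 of 21 tested. The decreases depend on the processing: with columns rescaled without Rn45s and Lars2 7 rose and none fell, with the title code 1 rose and none fell, and without any 1 library 2 or 3 rose and 1 or 2 fell. Of iron and heme genes, 4 of 12 tested rose and none fell: Spic, the heme oxygenase Hmox1 (19.1 and 12.9 to 175.6 and 221.9 TPM), the iron exporter Slc40a1 and the transferrin receptor Tfrc. With rescaled columns 7 rose, and with the title code 1.

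**Figure D2:**
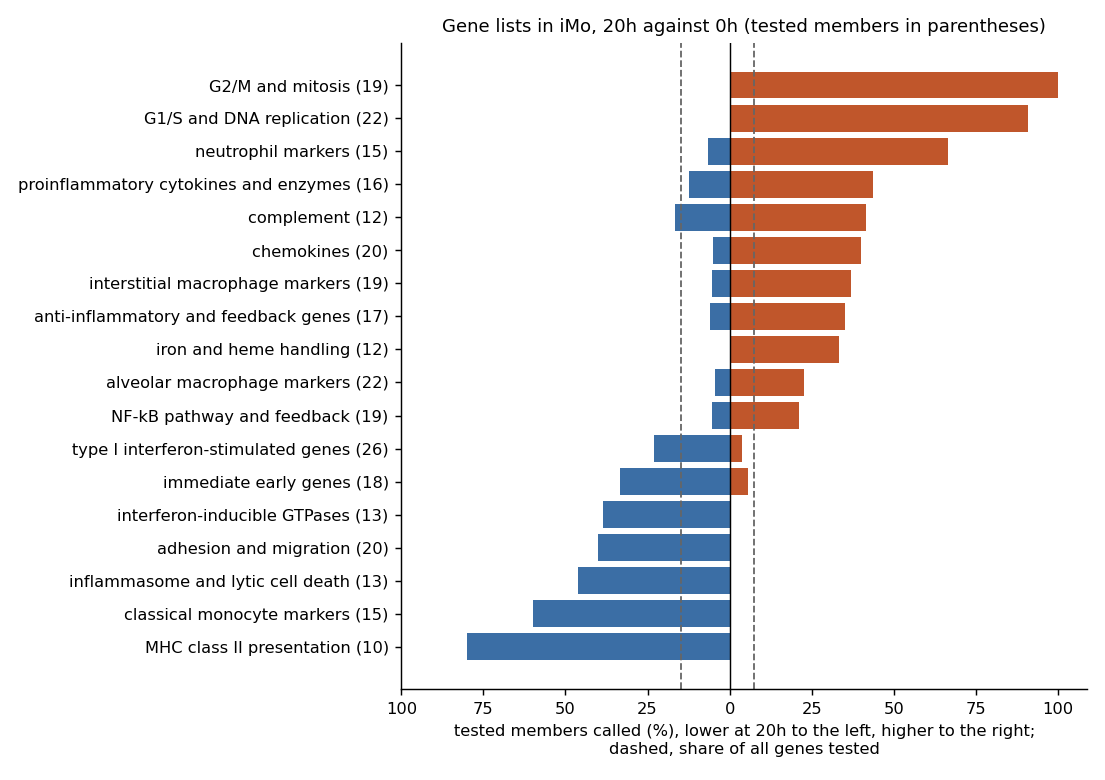
Share of the tested members of gene lists that were called in iMo at 20h against 0h, lower to the left and higher to the right, in percent, with the number tested in parentheses. Dashed lines mark the share of all genes tested, 14.8% lower and 7.39% higher. The 2 cell cycle lists lie furthest to the right and MHC class II furthest to the left.

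Cell cycle genes rose as a block. Of 22 tested genes of G1/S and DNA replication (26 listed), 20 rose and none fell, against 7.39% of all genes, with a median log2 fold change of 2.62. Of 19 tested genes of G2/M and mitosis (24 listed), 19 rose, with a median of 2.47. Low genes had been left out of the test, and without the filter 22 of all 26 and 23 of all 24 rose. Among the listed genes, 25 of 26 and 24 of 24 were higher in both 20h libraries than in both 0h libraries. The share of all genes that separate in this way was not counted. In the model with the title code, 12 and 12 were higher and none lower. Leaving out single libraries kept 16 to 18 and 17 or 18.

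Rrm2, the small subunit of ribonucleotide reductase that supplies deoxynucleotides for replication, was at 0.565 and 0.204 TPM at 0h and at 27.1 and 20.4 TPM at 20h (log2 fold change 4.47, SE 0.36, adjusted p = 1.79e-07). The replicative helicase genes rose from similarly low levels. Mcm5 went from 2.51 and 2.71 to 46.6 and 42.4 TPM, Mcm6 from 1.67 and 1.30 to 36.2 and 31.8 TPM and Mcm2 from 1.28 and 0.922 to 26.2 and 31.1 TPM. Pcna and Slbp, which are also expressed outside S phase, did not pass the test (39.2 and 26.3 TPM and 17.0 and 12.4 TPM at 20h). On the mitotic side, Ube2c, the E2 enzyme of the anaphase-promoting complex, was at 0 and 1.44 TPM at 0h and at 28.6 and 28.7 TPM at 20h (log2 fold change 4.56, SE 0.51, adjusted p = 5.37e-06). Ccnb2 (cyclin B2) went from 0 and 1.15 to 24.1 and 16.8 TPM, Cdk1 from 0.215 and 0.31 to 13.1 and 11.04 TPM and Top2a from 0.592 and 1.11 to 18.8 and 16.0 TPM. In every case both 20h libraries lie above both 0h libraries.

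G1/S and G2/M genes differed in time. In the mean of the 2 libraries, the median of the 26 G1/S genes was 1.84 TPM at 0h, 1.63 at 2h, 3.68 at 6h and 15.5 TPM at 20h. The median of the 24 G2/M genes was 0.371, 1.37, 5.43 and 6.92 TPM at the same times. Between 6h and 20h, which share a title code, 15 of 22 tested G1/S genes rose (2.86% of all genes tested rose and 1.16% fell), among them Mcm6 from 6.31 and 4.54 TPM at 6h, Mcm2 and Rrm1. Of the 19 G2/M genes 1 rose in that interval, the kinetochore gene Ndc80. Ccnb2 was at 31.4 and 46.4 TPM at 6h, above both 20h libraries, without passing the test (adjusted p = 0.255).

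**Figure D3:**
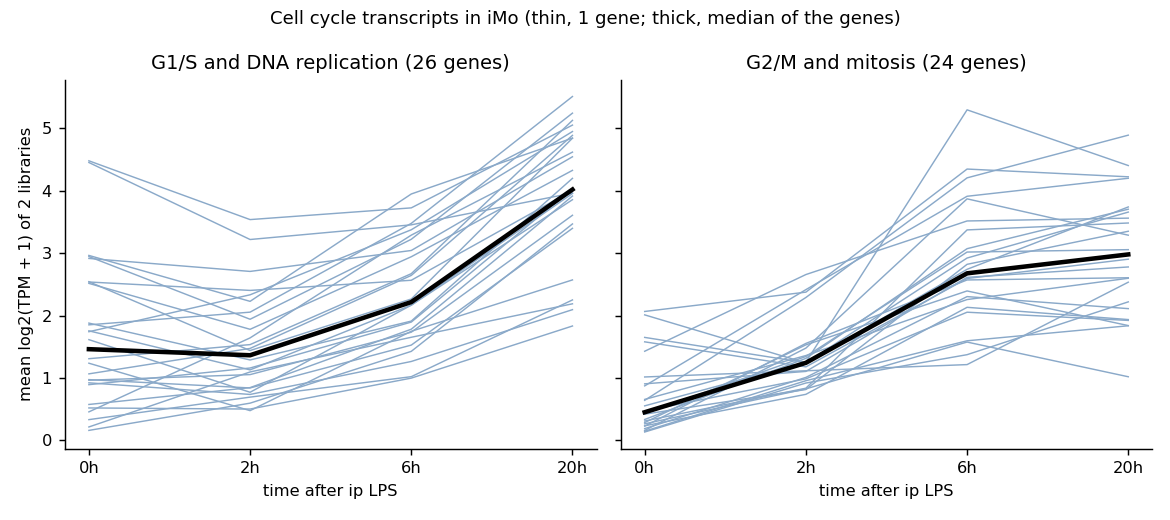
Mean log2(TPM + 1) of the 2 iMo libraries at each time (times evenly spaced) for 26 genes of G1/S and DNA replication and 24 genes of G2/M and mitosis; thin lines are genes and the thick line their median. The G1/S median stays level to 2h and is highest at 20h, and most of the G2/M increase lies before 6h.

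The start regions of cell cycle genes, mitotic ones and the replication gene Rrm2, are shown because these genes rose together and short promoter elements recur among them. Sequences are from RefSeq (GRCm38.p6, the same assembly as mm10), cover the 150 bases before the annotated start and are written 5′ to 3′ in the direction of transcription. Capitals mark matches, on either strand, to the 3 motifs searched. The first is CCAAT, the box bound by NF-Y. The second is TTTGAA, the cell cycle genes homology region (CHR). The third is GCGGGAA, a core of E2F sites, which none of these windows holds.
Ccnb2 (chr9:70421555-70421704, minus strand): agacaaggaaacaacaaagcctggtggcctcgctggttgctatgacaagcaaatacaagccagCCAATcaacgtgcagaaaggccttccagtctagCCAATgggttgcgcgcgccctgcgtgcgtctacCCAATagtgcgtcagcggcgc
Ube2c (chr2:164769779-164769928, plus strand): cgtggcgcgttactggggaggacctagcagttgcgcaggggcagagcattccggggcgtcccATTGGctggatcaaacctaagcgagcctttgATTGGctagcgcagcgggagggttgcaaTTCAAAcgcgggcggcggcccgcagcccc
Cdk1 (chr10:69352913-69353062, minus strand): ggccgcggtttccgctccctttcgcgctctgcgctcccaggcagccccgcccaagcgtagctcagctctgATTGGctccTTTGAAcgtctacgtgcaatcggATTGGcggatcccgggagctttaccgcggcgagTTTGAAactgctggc
Top2a (chr11:99024190-99024339, minus strand): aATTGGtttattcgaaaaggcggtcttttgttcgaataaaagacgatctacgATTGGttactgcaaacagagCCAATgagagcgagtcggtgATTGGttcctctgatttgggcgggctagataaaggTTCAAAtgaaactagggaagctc
Rrm2 (chr12:24708104-24708253, plus strand): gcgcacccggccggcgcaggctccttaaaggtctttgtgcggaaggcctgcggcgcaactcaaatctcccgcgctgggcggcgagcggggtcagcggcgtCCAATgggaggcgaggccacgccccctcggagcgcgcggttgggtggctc
Ccnb2 holds 3 CCAAT matches, the first bases of which are at positions -87, -54 and -21 from the start. Ube2c and Cdk1 hold 2 each, Top2a 4 and Rrm2 1. The CHR letters occur in Ube2c, Cdk1 and Top2a between the last CCAAT match and the start, and once more between the CCAAT matches of Cdk1. Over 250 bases before the start, CCAAT was found in 12 of 15 tested G2/M genes with a promoter in the table (80%), in 11 of 19 G1/S genes (57.9%) and in 40.4% of 7082 tested genes (37.5% of all 27025 genes in the table). The CHR letters were in 8 of 15 G2/M genes (53.3%), 2 of 19 G1/S genes (10.5%) and 12.7% of the tested genes. The E2F letters were in 4 of 19 G1/S genes (21.1%), none of 15 G2/M genes and 7.99% of the tested genes. Genes with several listed starts count as matched if any start does. Such matches describe letters in a window and say nothing of binding.

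Genes that mark classical monocytes fell. Of 15 tested, 9 fell and none rose, against 14.8% of all genes that fell, with a median log2 fold change of -1.66. Adding the title code left 5, as did leaving out library B of 20h, and without any other library 6 fell. Ccr2, the receptor for CCL2 that brings monocytes out of bone marrow, was at 931.1 and 548.8 TPM at 0h, at 60.6 and 42.5 TPM at 20h, and between them at 2h (327.8 and 167.9) and 6h (121.0 and 133.0). Its log2 fold change at 20h was -3.48 (SE 0.67, adjusted p = 0.000378), and with the title code it kept the call (0.00011). Vcan (versican) went from 100.2 and 32.1 to 5.64 and 6.68 TPM, and Mgst1, a microsomal glutathione transferase, from 458.0 and 522.1 to 31.4 and 18.3 TPM. Ly6c2, whose product is the usual surface marker of these cells, was at 2046 and 4892 TPM at 0h and at 1519 and 1294 TPM at 20h and did not pass the test (adjusted p = 0.307). Of 12 nonclassical monocyte markers 3 rose and Cx3cr1 fell, against 6 and 0 with rescaled columns and 1 and 0 with the title code. Cd300e, an activating receptor of monocytes, went from 0.315 and 0.908 to 37.9 and 49.3 TPM (log2 fold change 5.11, SE 0.48, adjusted p = 5.54e-07), and Nr4a1, the factor required for Ly6C-low monocytes, from 33.8 and 34.4 to 109.5 and 118.0 TPM.

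Of 20 adhesion and migration genes 8 fell and none rose, 3 without library A of 0h and 4 to 6 without any other library. With rescaled columns 3 rose and 5 fell, after quantile normalization 2 rose and 6 fell, and with the title code 3 fell. The 8 included Ccr2, Vcan, Cx3cr1, the PSGL-1 gene Selplg, the integrin gene Itga4, fibronectin (Fn1) and Thbs1. The beta-2 integrin genes Itgam and Itgb2 were not called (168 and 195 TPM and 233 and 241 TPM at 20h). Among the 14 genes of largest decrease that the rule named were also the lectin receptors Cd209a (63.2 and 20.4 TPM at 0h, 0 in both 20h libraries) and Clec7a, the beta-glucan receptor dectin-1 (123.8 and 213.2 to 6.20 and 9.75 TPM). The oxysterol receptor Gpr183 went from 53.0 and 20.4 to 1.08 and 1.95 TPM, and Hpgd, which inactivates prostaglandins, from 44.1 and 48.8 to 1.60 and 3.76 TPM. The crystallin genes Crybb1 and Cryba4, and Dleu2, Serpinb10, Rnase6 and Smim5, were among them as well. Clec7a, Rnase6, Smim5 and Hpgd lost the call in the model with the title code (adjusted p = 0.0808, 0.0515, 0.0724 and 0.103). Of 12 C-type lectin receptor genes 3 fell, the third being Clec10a, and of 6 Fc receptor genes Fcgr1 and Fcgr3 fell. Of all genes tested 14.8% fell, so these short lists differ from that share by few genes. With the title code 2 C-type lectin genes and no Fc receptor gene fell. With rescaled columns 3 C-type lectin genes fell and 1 rose, and 1 Fc receptor gene fell.

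MHC class II genes, which present peptides to CD4 T cells, were lower at 20h, and the size of the difference depends on library B of 0h. Of 10 tested, 8 fell and none rose, with a median log2 fold change of -2.12. H2-Aa was at 315.7 TPM in library A and 1677 TPM in library B at 0h, and at 54.4 and 53.2 TPM at 20h. Both 0h libraries thus lie above both 20h libraries, but they differ from each other by several times. The log2 fold change was -3.42 (SE 0.87, adjusted p = 0.0037, and 0.076 with the title code). The same held for H2-Ab1 (374.0 and 2162 TPM, then 87.9 and 88.7 TPM), for the invariant chain Cd74 (928.6 and 3956, then 191.4 and 188.9 TPM) and for the transactivator Ciita (6.52 and 16.0, then 1.61 and 1.90 TPM). Without library B of 0h 1 of 10 was called, without library A 7, without library A of 20h 5 and without library B of 20h 3. In the model with the title code 1 was called. H2-Aa was lowest at 6h (16.7 and 24.6 TPM), and none of the 10 passed the test between 6h and 20h. Of 15 MHC class I and immunoproteasome genes, Tap2 rose and H2-T23 and Psmb10 fell, near the shares of all genes (7.39% rose and 14.8% fell).

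The start of H2-Aa (RefSeq, GRCm38.p6) is shown because class II promoters share a CCAAT element, the Y box, and these genes moved together; capitals mark CCAAT on the other strand, within the 150 bases before the start.
H2-Aa (chr17:34287824-34287973, minus strand): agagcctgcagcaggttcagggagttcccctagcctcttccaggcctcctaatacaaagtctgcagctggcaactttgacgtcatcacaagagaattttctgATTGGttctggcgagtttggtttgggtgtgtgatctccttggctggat
CCAAT lies within 250 bases before the start in 7 of 7 class II genes in the promoter table (100%), against 40.4% of the tested genes, and neither the CHR nor the E2F letters were found there (0 of 7 each).

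Transcripts of neutrophil granules and neutrophil markers rose in iMo. Of 15 tested, 10 rose and 1 fell, with a median log2 fold change of 4.21. The model with the title code called 7, and without any 1 library 9 or 10 rose. S100a9, a subunit of calprotectin, was at 4.72 and 13.6 TPM at 0h and at 1121 and 1196 TPM at 20h (log2 fold change 7.30, SE 0.79, adjusted p = 2.64e-06). Ngp, a protein of secondary granules, was listed at 0 in both 0h libraries and at 178.3 and 113.3 TPM at 20h. Retnlg rose from 3.06 and 0.733 to 108.0 and 61.8 TPM, Mmp9 from 0.194 and 0.419 to 29.1 and 24.9 TPM and Lcn2 (lipocalin 2, which binds bacterial siderophores) from 24.7 and 21.9 to 1120 and 843.6 TPM. Lcn2 and S100a8/S100a9 are also made by stimulated monocytes and macrophages. Genes of neutrophil surface proteins were at lower levels. Ly6g rose to 2.48 and 5.46 TPM (63.6 and 60.0 TPM in IM libraries B and A at 20h, given in this order throughout) and Cxcr2 to 5.09 and 5.41 TPM (89.8 and 80.0 TPM in IM). Csf3r, the G-CSF receptor, did not pass the test, at 28.5 and 21.8 TPM at 0h and 13.4 and 26.5 TPM at 20h. Mmp8, a collagenase of neutrophil granules, fell from 124.0 and 57.5 to 24.2 and 20.2 TPM.

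The summed level of the 15 neutrophil markers was 258.8 and 169.8 TPM at 0h, 2332 and 6162 TPM at 2h, 8815 and 5719 TPM at 6h and 4037 and 3789 TPM at 20h. In the IM libraries the same sum was 22840 and 11350 TPM at 0h and 40000 and 33190 TPM at 20h. IM libraries at 20h had S100a9 at 16040 and 12590 TPM, Ngp at 566.3 and 555.9 TPM and Ltf (lactoferrin) at 28.4 and 10.6 TPM. Ltf was at 20.2 and 13.9 TPM in iMo at 20h, in the range of IM, while S100a9 was far below IM. Elane, a protease of immature neutrophils and their precursors, rose from 0.671 and 0.484 to 12.4 and 9.40 TPM, and the other 2 tested primary granule genes did not pass the test. The part of neutrophil RNA in these results was not tested.

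Inflammatory genes remained above 0h at 20h in part. Saa3, an acute-phase apolipoprotein made by activated macrophages, had the largest log2 fold change of all named genes (7.84, SE 0.77, adjusted p = 7.02e-07), from 33.9 and 37.8 TPM at 0h to 8245 and 5627 TPM at 20h. Acod1, which makes itaconate, rose from 0.237 and 2.05 to 110.8 and 89.2 TPM. Mmp14, a membrane-bound metalloprotease, went from 0.485 and 1.51 to 80.5 and 93.8 TPM, and Sdc4, a syndecan, from 0.25 and 0.54 to 48.2 and 42.8 TPM. Of 20 chemokine genes, 8 rose (Ccl2, Ccl3, Ccl4, Ccl5, Ccl7, Ccl12, Cxcl2 and Cxcl16) and Ccl9 fell. Ccl3 went from 4.69 and 3.37 to 45.2 and 44.6 TPM, and Ccl4 from 6.55 and 3.37 to 68.7 and 57.9 TPM. Without library A of 0h or library B of 20h, 5 of them were called. Cxcl10 did not pass the test, and its 0h libraries (6.16 and 101.7 TPM) lie on both sides of library B of 20h (65.4 TPM).

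Of 16 tested proinflammatory cytokines and enzymes, 7 rose and 2 fell (Il18 and Il27). Tnf went from 2.60 and 5.63 to 19.3 and 12.2 TPM, Il6 reached 2.81 and 1.26 TPM, and Il1b, at 83.3 and 94.6 TPM at 0h and 131.4 and 152.2 TPM at 20h, was not called. Leaving out single libraries left 2 to 5 of them higher, 2 without library A of 0h or library A of 20h, and 4 rose with the title code. Of 17 tested anti-inflammatory and feedback genes, 6 rose and 1 fell, against 11 and 0 with rescaled columns, 11 and 1 after quantile normalization and 2 and 0 with the title code. Il10 went from 0 and 0.68 to 8.75 and 8.81 TPM, Arg1 (arginase 1) from 0 and 0.301 to 42.2 and 16.6 TPM and Socs3 from 14.7 and 16.1 to 75.7 and 77.5 TPM. Of 19 NF-kB genes, 4 rose, namely the adaptor Traf1, the inhibitors Tnip1 and Tnip3 and the deubiquitinase Tnfaip3, and Rel fell. This count depends on scaling: 13 rose and none fell with columns rescaled without Rn45s and Lars2. Of 9 tested glucocorticoid-induced genes, Fkbp5 (12.03 and 4.45 to 47.9 and 45.6 TPM) and Ddit4 rose and Dusp1 and Cebpd fell, while 3 rose and none fell with rescaled columns. A list of 19 genes held the TLR4 complex, its adaptors and other Toll-like receptors, among them Tlr1, Tlr6 and Tlr8. Of these 19, Tlr1 rose and Lbp, Irak4, Tlr6 and Tlr8 fell. This is near the shares of all genes (7.39% rose and 14.8% fell). With rescaled columns 5 rose and 1 fell, near the shares of all genes in that setting (2269 rose and 528 fell of 8919).

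Interferon genes gave counts that depended on the processing. Of 26 type I interferon-stimulated genes 1 rose (Isg15) and 6 fell (among them Mx2, Stat2, Cmpk2, Ifih1 and Xaf1), with a median log2 fold change of -0.67. Without library B of 0h, or without library B of 20h, none was called, as with the title code, and with rescaled columns 3 rose and 2 fell. Of 13 tested interferon-inducible GTPases, which act against intracellular pathogens, 5 fell and none rose. Gbp2 was at 18.3 TPM in library A and 330.3 TPM in library B at 0h and at 13.4 and 10.5 TPM at 20h. Library A of 0h is thus close to the 20h level, and library B is far above it. Without library B of 0h none of the 13 was called, without library A 11, without library A of 20h 2 and without library B of 20h none. With rescaled columns 2 fell, and with the title code 1. Genes of this family have close copies, and how reads shared by copies were counted is not given in the sources used here.

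Of 13 tested genes of inflammasomes and lytic cell death, 6 fell and none rose. Casp4, the sensor of intracellular LPS known as caspase-11, went from 98.0 and 96.5 to 17.8 and 15.5 TPM (log2 fold change -2.17, SE 0.50, adjusted p = 0.00132). Casp1 went from 107.4 and 124.1 to 27.6 and 18.1 TPM, and the DNA sensor Aim2 from 11.9 and 17.5 to 2.52 and 3.96 TPM. Nlrp3 and Pycard did not pass the test (6.36 and 6.42 TPM and 244 and 145 TPM at 20h). Leaving out single libraries kept 4 or 5, and with the title code none of the 13 was called. Of 18 tested immediate early genes 6 fell, led by Atf3 (69.7 and 95.0 to 7.39 and 3.99 TPM) and Fos (218.6 and 172.5 to 16.4 and 19.7 TPM), and Nr4a1 rose. Without any 1 library, or with the title code, 2 fell.

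For lists of abundant housekeeping genes the count depended on how libraries were scaled. Of all genes tested 7.39% rose and 14.8% fell, and with rescaled columns 2269 of 8919 rose and 528 fell. The ribosomal and lysosomal decreases, and the respiratory chain increases with rescaled columns, lay near these shares. Of 24 tested ribosomal protein genes 4 fell and none rose, but with rescaled columns 2 rose and 1 fell. Of 16 glycolysis genes 1 rose and 1 fell, and 11 rose and none fell with rescaled columns. Of 21 respiratory chain genes 2 fell and none rose, and 6 rose and none fell with rescaled columns. Of 14 genes of the unfolded protein response 2 rose and 2 fell, and 9 rose and 1 fell with rescaled columns. Of 20 lysosomal protease and hydrolase genes 3 fell (Ctsh, Ctss and Npc2) and none rose, against 4 higher and 3 lower with rescaled columns. No gene was called among 15 of sterol synthesis and 10 of growth factor and TGF-beta receptors, of which 3 and 0 had an unadjusted p under 0.05 in limma.

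**Figure D4:**
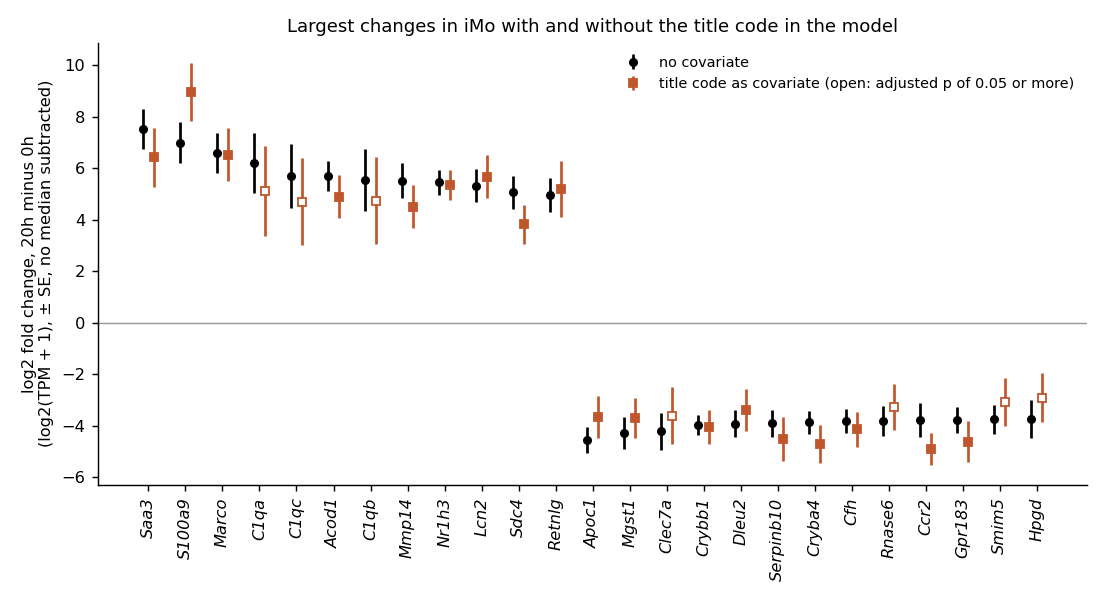
Log2 fold change of log2(TPM + 1), 20h minus 0h in iMo, with its SE and without subtraction of the median, for the genes of largest change named by the rule. Genes listed at 0 in both libraries of a group (Ngp, Ccl12 and Cd209a) are not drawn. Circles are from the model without the title code and squares with it. Open squares, at an adjusted p of 0.05 or more, are the 3 C1q genes, Clec7a, Rnase6, Smim5 and Hpgd, and no gene changes sides of 0.

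The 28 genes of largest change named by the rule, 14 in each direction, were chosen from these same 4 libraries as called and without overlap. Leaving out a library is therefore no separate test of them. Adding the title code left 21 of the 28 called.

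The 20h state differed from the earlier times. Against 6h, 256 genes (2.86%) rose and 104 (1.16%) fell, and these libraries share a title code. Without library B of 6h or library A of 20h 49 genes were called in all, without library B of 20h 70 and without library A of 6h 497. The C1q genes and Marco led the increases. C1qa was at 7.84 and 1.69 TPM at 6h, so its increase by 20h had a log2 fold change of 5.49 relative to the median of that contrast (adjusted p = 0.00681, limma). Marco was already at 7.97 and 7.65 TPM at 6h (3.43, adjusted p = 0.0102). Cd300e, Retnlg, Mmp9, Il10, Slc40a1 and Dctpp1, a nucleotide pyrophosphatase, also rose after 6h. Early-response genes fell from 6h to 20h. Timp1, an inhibitor of metalloproteases, was at 121.9 and 211.4 TPM at 6h and at 1.55 and 4.88 TPM at 20h (log2 fold change -5.58, adjusted p = 1.27e-05). Il1rn (389.3 and 882.3 to 24.1 and 28.0 TPM), Ptx3, Socs1 (48.1 and 133.3 to 4.43 and 5.36 TPM) and U90926 (22.9 and 22.3 TPM to 0 in both) also fell.

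Against 2h, which also shares the title code, 1310 genes (14.7%) rose and 920 (10.3%) fell. In all, 890 were called without library B of 2h, and 1216 and 1300 without libraries A and B of 20h. Of 26 type I interferon-stimulated genes 24 were lower at 20h than at 2h, among them Rsad2 (viperin), at 589.4 and 1390 TPM at 2h and both at 13.1 TPM or less at 20h. Cxcl10 went from 3861 and 8795 to 118.0 and 65.4 TPM, and Cxcl11 from 53.4 and 121.9 TPM to 0 in both. Thbs1, a matrix protein gene, went from 112.6 and 266.3 to 1.01 and 0.982 TPM. Of 16 proinflammatory genes 11 were lower than at 2h and none higher, and of 13 inflammasome genes 10 were lower and 1 higher. G1/S genes were higher than at 2h in 21 of 22 and G2/M genes in 17 of 19.

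The response of iMo was set beside that of IM. The title codes of IM at 0h and 20h are those of iMo, so a code difference that adds equally to both cell types cancels in this contrast. Taken with its sign, the 20h change of iMo was higher than that of IM in 295 genes (3.3%) and lower in 43 (0.481%). A higher value can also come from a decrease in IM. Leaving out single libraries gave 104 to 305 calls, the fewest without library A of iMo at 0h, library A of IM at 20h (125) and library B of iMo at 20h (127). The count was 218 and 202 without library A or B of IM at 0h and 221 without library A of iMo at 20h. C1qa led: in IM it was at 1077 and 973.1 TPM at 0h and at 327.5 and 323.6 TPM at 20h. The iMo libraries at 20h, at 248.7 and 252.3 TPM, were close to the IM libraries of that time from a far lower start. The difference of the responses was 8.10 on the log2 scale (SE 1.64, adjusted p = 0.00644). Pf4, Ccl8, Folr2 and the endothelial gene Gpihbp1 were among the other leading genes, all high in IM at 0h. Ccl8 was at 0 in every iMo library of 0h and 20h and at 308.1 and 230.5 TPM in IM at 0h, then 3.03 and 0.868 TPM, so that the values that changed are those of IM. Marco was also higher at 20h in IM, at 4.39 and 2.46 TPM at 0h and 53.9 and 145.0 TPM at 20h, and the responses did not pass the test of their difference (adjusted p = 0.39). Nr1h3 (246.3 and 197.1 TPM in IM at 20h) and Mmp14 did not pass it either (adjusted p = 0.686 and 0.195).

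Markers of other cells were high in IM at 0h. Endothelial markers summed to 560.5 and 742.3 TPM in IM at 0h against 8.05 and 53.3 TPM in iMo, and to 42.8 and 23.1 TPM in IM at 20h. Fibroblast and smooth muscle markers summed to 554.4 and 551.3 TPM in IM at 0h and 12.4 and 5.40 TPM at 20h. Of 10 endothelial markers, 9 were called higher in the signed response of iMo minus IM. In iMo their sum was 18.8 and 37.5 TPM at 20h, so the levels that fell are those of IM. The part of such markers in the differences was not tested. In the other direction, Mmp8 fell in iMo and was at 47.4 and 34.1 TPM at 0h and 162.1 and 203.8 TPM at 20h in IM. Cd177, a neutrophil surface gene, went from 54.6 and 55.4 to 12.6 and 14.6 TPM in iMo and from 18.1 and 13.1 to 76.8 and 38.2 TPM in IM. Orm1 and Prok2 also had a lower signed response in iMo than in IM, and the IM libraries of 20h are those with the highest neutrophil sums. Cell cycle genes were higher in IM at 20h as well. Rrm2 was at 2.10 and 2.43 TPM at 0h and at 12.03 and 10.9 TPM at 20h, and 2 G1/S genes (Rrm2 and Lig1) and 2 G2/M genes (Top2a and Ccnb2) changed more in iMo by the test.

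**Figure D5:**
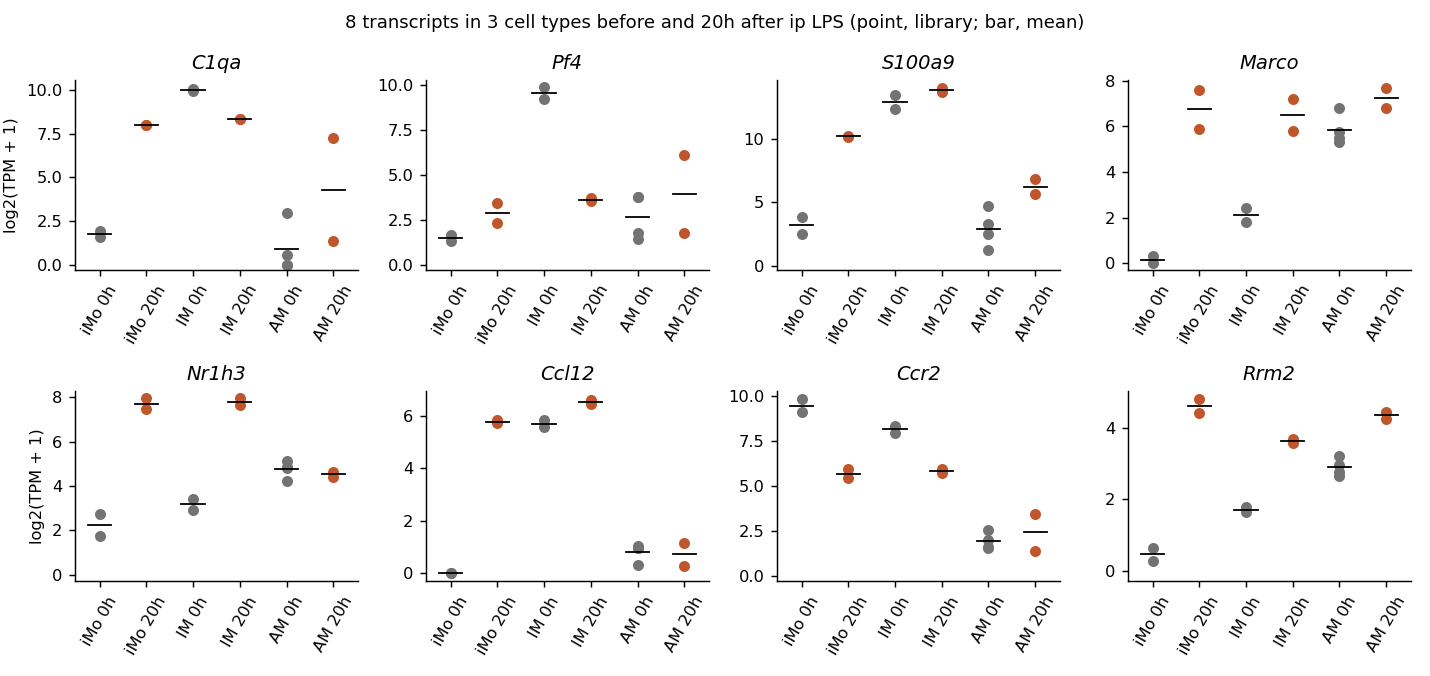
Level of 8 transcripts in each library of iMo, IM and AM at 0h (grey) and 20h after ip LPS (orange), as log2(TPM + 1); bars are means. At 20h iMo lie near IM for C1qa, Marco, Nr1h3, Ccl12 and Ccr2 and below IM for S100a9, and the 2 AM libraries of 20h are far apart for C1qa and Pf4.

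Against AM, the 20h change of iMo was higher in 203 genes (2.27%) and lower in 167 (1.87%). Without library A or B of iMo at 0h 187 and 189 genes were called in all, without library A or B of iMo at 20h 206 and 144, and without library A161219 of AM at 20h 233. In AM, 1 library of 0h and 1 of 20h carry another title code, so codes cancel only in part here, and the 2 AM libraries of 20h differed from each other (C1qa 1.60 and 148.7 TPM). Nr1h3 was at 17.4, 27.4, 28.4 and 34.1 TPM at 0h and at 20.3 and 23.9 TPM at 20h in AM, while it rose in iMo, and the difference was 5.69 on the log2 scale (adjusted p = 3.08e-05). Marco was present in AM throughout, at 39.2 to 111.2 TPM at 0h and at 202.0 and 110.5 TPM at 20h, and iMo at 20h lay in or near that range. Ccl12, Acod1 and Cd300e stayed below 9 TPM in all AM libraries of 0h and 20h. Of 19 G2/M genes 14, and of 22 G1/S genes 9, rose more in iMo than in AM. AM had higher levels of these genes before LPS: the median of the 24 G2/M genes was 4.37 TPM in AM at 0h and 4.67 TPM at 20h. Of the genes named for a larger decrease in iMo than in AM, Cd209a, Gpr183, Galnt9 and Thbs1 were at 1.53 TPM or less in the AM libraries of 0h, and Atf3 was at 7.22 to 15.1 TPM. Other called genes in this direction were well above 0 in AM at 0h, such as Mgst1 at 126.8 to 414.9 TPM.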

How the data were processed

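The values are TPM per gene as deposited by the authors; STAR, HOMER and the mm10 build are named in the submitters' processing notes, and no source used here gives the annotation or settings. Column sums of the 27 libraries used ran from 331473 to 551635. In the 18 nasal columns the row names did not match the values (Pearson r with other libraries 0.01 to 0.025, against 0.757 to 0.989 among the others), so they were not used. No columns were identical. The series text gives another last time than the 20h of the labels, which was used.

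Genes reaching 5 TPM in 2 or more libraries (8937) were tested on log2(TPM + 1) with limma 3.58.1 (R 4.3.3), in 1 model of 12 groups with 15 residual degrees of freedom and a mean-variance trend, with Benjamini-Hochberg adjustment per contrast. The procedure was tested on simulated data. The members and the 43 gene lists were chosen with earlier results of these data known. The rule for named genes took, in each direction, the called genes that changed most, if groups did not overlap and the higher one averaged 10 TPM or more (14 for 20h against 0h, 5 against 6h and 2h, 6 for differences of responses), up to 4 called members per list, and Marco, C1qa, Rrm2 and Ccr2. Other list members are named to complete a count and were chosen after their values were seen. Some genes that this rule named are not reported here. Alternatives were other pseudocounts, filters, scalings, sets of libraries, weights and covariates, and leaving out each library; equalising the library medians was chosen after seeing the data.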

Additional observations from a re-analysis of the deposited data

Results flagged for a closer look

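The genes below had a 20h response that differed between cell types by limma's test of the difference itself (adjusted p under 0.05, Benjamini-Hochberg), given as the response of iMo minus that of the other cells on the log2 scale, relative to the median of all genes. Against IM, the largest positive differences were 8.10 for C1qa, 7.54 for Pf4, 7.12 for C1qc, 6.85 for Ccl8, 6.71 for Gpihbp1 and 6.42 for Folr2. Pf4, a platelet and macrophage chemokine gene, was at 920.9 and 594.2 TPM in IM at 0h and at 10.5 and 12.1 TPM at 20h, with 2.10 and 1.51 and then 3.90 and 9.81 TPM in iMo, so the levels that changed are those of IM. The negative differences were -3.79 for Mmp8, -3.45 for Cd177, -3.22 for Orm1, -3.14 for Rwdd2a, -2.91 for Prok2 and -2.80 for Ints6l.

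Against AM, the positive differences were 5.88 for Ccl12, 5.69 for Nr1h3, 5.31 for Wfdc21, 5.22 for Marco, 5.21 for Acod1 and 5.09 for Cd300e. The negative ones included -5.40 for Cd209a, -4.88 for Thbs1, -4.71 for Galnt9, -4.61 for Atf3 and -4.53 for Gpr183. AM library A161219 of 20h held Thbs1 at 9.997 and Atf3 at 56.2 TPM, where the other AM library of 20h held 0.296 and 8.51 TPM.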

How the results depend on the processing

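Calls for 20h against 0h (1981 genes) numbered 265 with the title code as covariate, 3259 with the 2 groups alone, 3832 with array weights, and 760 to 1092 without any 1 library. For 20h against 6h (360) they numbered 1052 after quantile normalization, 1165 with rescaled columns, 878 with equalised library medians, 802 with the title code, 201 with the 2 groups alone, 690 with array weights and 49 to 497 without any 1 library. For 20h against 2h (2230) they numbered 3614 with rescaled columns and 890 to 2173 without any 1 library. For iMo against IM (338) they numbered 74 with a pseudocount of 0.1 TPM, 184 with a filter of 10 TPM, 525 with equalised medians, 926 with array weights and 104 to 305 without any 1 library. For iMo against AM (370) they numbered 221 without a filter, 692 after quantile normalization, 914 with rescaled columns, 890 with equalised medians, 640 with the title code, 720 with array weights and 144 to 416 without any 1 library. Where fewer libraries enter, the lone library is assumed to vary like the other groups. None of 147 named genes reversed its direction in 20h against 0h under any alternative. Of those called, 81 lost the call with the title code and 34 to 49 without any 1 library; the cause was not tested.

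With the title letter as a replicate block, in iMo libraries alone, 2421, 441 and 2472 genes were called against 0h, 6h and 2h. The letters share only a name: deviations of A from B correlated across genes at -0.165 to 0.084 between time points.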
